A study of Mus musculus with 2 samples.

Results

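The regions described here are stretches of GPS2 signal in differentiating adipocytes, built from windows that the authors listed at day 6 and that lie so close together that they overlap. The windows of the day 6 list, all 2000 bp wide, were sorted and joined wherever they shared at least 1 bp. This gave 19168 joined regions, of which 587 held 2 or more windows and are called domains. They took up 1213 of the 19794 listed windows (6.13%). Of these domains, 571 had under 100 reads in both libraries. The other 16 had 100 or more reads in at least 1 library and are described apart, as possible pile-ups of reads from repeated sequence. The 18581 windows that touched no other window of the list serve as the comparison, 18444 of them under the same limit of 100 reads.

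The study used ChIP-seq, the sequencing of chromatin fragments pulled down with an antibody, to map GPS2 in 3T3-L1 cells. These are mouse preadipocytes of an established line that become fat cells when induced with hormones. There was 1 library from day 0, before induction, with 4258133 aligned reads, and 1 from day 6 of induced adipogenesis, with 3543507. The labels give the same cell line and no genetic change for both, and rabbit antibodies to a C-terminal or an N-terminal GPS2 peptide without saying which one served which library. Neither replicates nor an input library were analysed here, and no expression was measured, so the state of the cells was not checked against marker genes. With 1 library per day no test between days was possible. All intervals are exact 95% intervals that cover counting error only. All positions are in the mouse build mm8, counted from 1. No gene annotation or sequence of that build was used here, so regions are given by coordinates and not by gene.

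GPS2 is a small subunit of the nuclear receptor corepressor complexes built around NCoR and SMRT, together with the deacetylase HDAC3 and the TBL1 proteins. Such complexes are held at enhancers and promoters by transcription factors, among them the nuclear receptor PPARG, the master regulator of fat cell formation. The title of the study links GPS2 to the histone demethylase KDM4A and to the recruitment of PPARG to promoters. A corepressor subunit can appear in ChIP-seq as a narrow summit at the site of the factor that holds it, or as a wider stretch where several such sites lie side by side.

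The first question was how the domains are composed. Of the 587 domains, 548 (93.4%) held 2 windows and 39 (6.64%) held 3. None held more. Their widths, which the joining rule limits, ran from 3179 to 5826 bp under the limit of 100 reads, with a median of 3619 bp. The centres of neighbouring windows were never closer than 1179 bp in the day 6 list, and never closer than 1197 bp in the day 0 list. A domain therefore joins windows whose centres stand apart by at least this distance. There were 626 neighbouring pairs with centres under 2000 bp apart, at a median of 1584 bp.

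Spacings just below the joining distance were more frequent than wider ones. Between 1200 and 2000 bp there were 153, 156, 144 and 156 pairs per 200 bp of distance. From 2000 to 3000 bp the numbers were 127, 97, 112, 95 and 122, and from 3000 to 4000 bp 104.6 pairs per 200 bp on average. Neighbours just inside the joining distance were set beside those just outside it. The 70 pairs spaced 1900 to under 2000 bp had medians of 14 day 0 and 23 day 6 reads in the central 1000 bp of both windows together. The 58 pairs spaced 2000 to under 2100 bp had 17.5 and 24. The ratios of day 6 to day 0 were 2.04 (1.89 to 2.20) inside and 1.83 (1.69 to 1.98) outside.

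**Figure D1:**
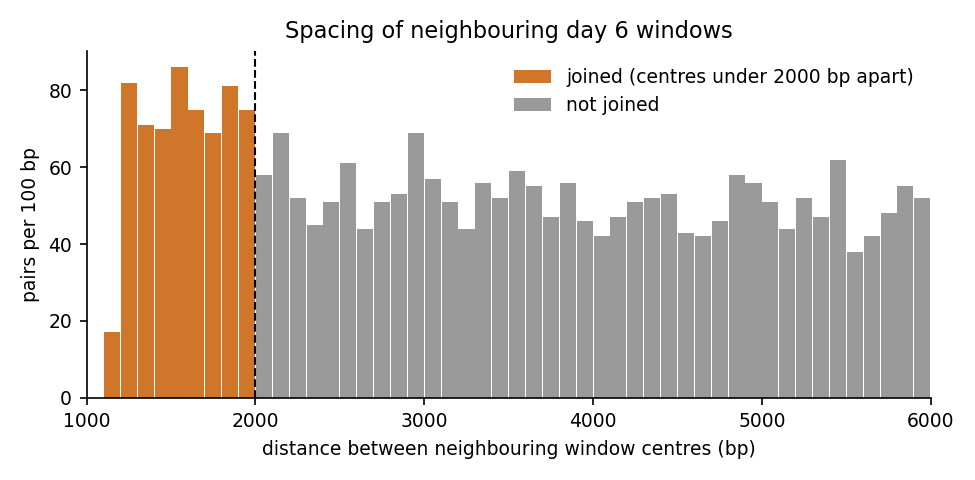
Number of neighbouring window pairs of the day 6 list (y axis, pairs per 100 bp of distance) against the distance between their centres in bp (x axis); orange pairs were joined into domains, grey pairs were not. No pair lies below 1179 bp, and the counts fall gradually across the dashed joining distance of 2000 bp.

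The label of these regions as broad domains was then checked against the read profile. In the 534 domains of 2 windows under 100 reads, the signal formed separate summits with a valley between them, not a plateau. At day 6 the 200 bp around the midpoint between the centres held 5.61 reads per kb and domain, against 38.0 in the 200 bp around the centres, a ratio of 0.148 (0.136 to 0.160). The day 6 reads chose the centres, which raises them there. The day 0 reads did not, and they showed the same form with lower summits. They gave 5.39 reads per kb at the midpoint and 14.7 at the centres, a ratio of 0.367 (0.335 to 0.401).

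The valley did not deepen steadily with distance. For centres under 1400 bp apart (145 domains) the midpoint stood at 0.348 of the centres at day 0 and 0.162 at day 6. For centres 1700 bp or more apart (188 domains) it stood at 0.369 and 0.141. At single windows, the stretches 700 to 900 bp from the centre, about as far out as a typical midpoint, had 0.187 of the centre's density at day 0 and 0.0743 at day 6. A midpoint has a summit on each side, a shoulder of a single window only on one.

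The valley held more reads than a sum of single-window profiles. Adding the mean profile of single windows at each centre, scaled to the height of the domain's centres and set on the domain's own flanks, gave 4.07 reads per kb at the midpoint at day 0 and 4.02 at day 6. The observed densities were 1.32 and 1.39 times these sums. The surplus was smallest for the closest centres, at 1.10 times (day 0) and 1.25 times (day 6), and reached 1.49 and 1.60 times for centres 1700 bp or more apart. The midpoint also stood 1.96 times above the flanks of the domain at day 0 and 2.15 times at day 6. In single domains these differences rest on few reads. The median midpoint held 1 read at either day, and the midpoint had fewer reads than each of its centres in 500 of 534 domains at day 6 (93.6%) and in 282 at day 0 (52.8%).

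**Figure D2:**
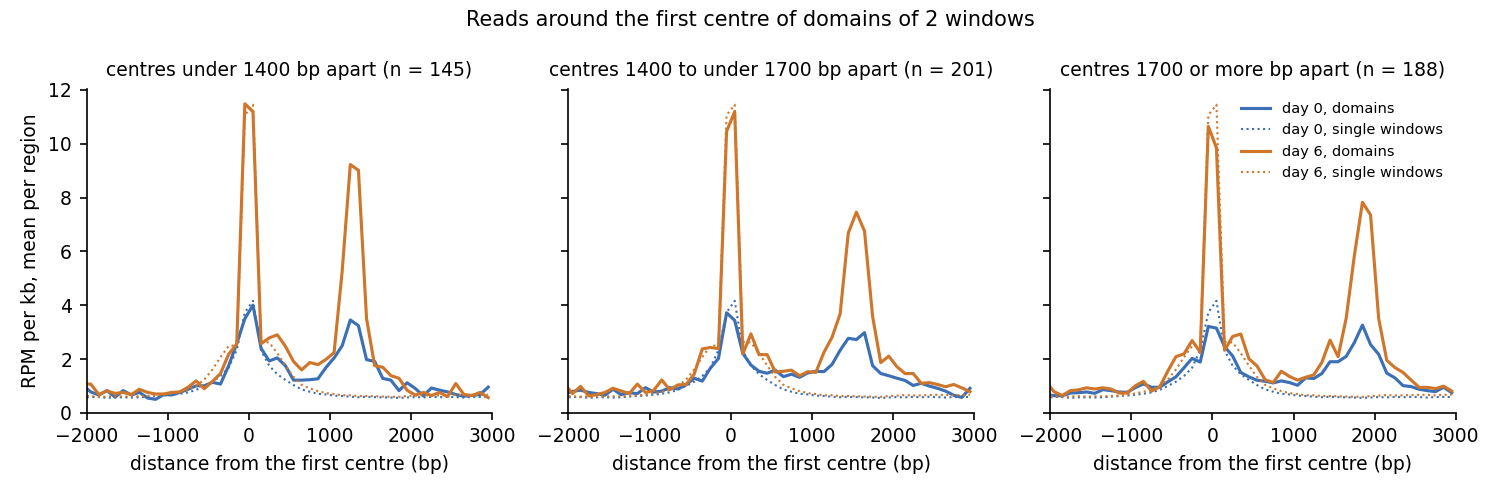
Mean RPM per kb and region (y axis) against the distance from the first centre in bp (x axis) for domains of 2 windows in 3 classes of spacing, at day 0 (blue) and day 6 (orange); dotted lines show single windows. The second summit is separate in each class, and the density between the summits falls to 0.348 to 0.379 of the centres at day 0 and 0.141 to 0.162 at day 6.

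The strands of the reads were set against the centres as well. In the 1179 windows of domains under the limit, plus-strand read starts at day 6 were 4.68 times as frequent in the 200 bp upstream of the centre as in the 200 bp downstream, and minus-strand starts 4.82 times as frequent downstream. Single windows gave 4.46 and 4.25 times. At day 0, whose reads played no part in placing the centres, it was 1.66 and 1.63 times for windows of domains and 2.03 and 1.74 times for single windows.

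The next comparison asked how much GPS2 signal the domains carried before and after differentiation. At day 0 the 571 domains held between 3 and 96 reads, with a median of 24, and at day 6 between 13 and 97, with a median of 33. Scaled to 1000000 reads of the library (RPM) the medians were 5.64 and 9.31. The ranges of the days overlap over most of their length. Summed over the domains, 14666 day 0 reads stood against 20408 day 6 reads, a ratio of day 6 to day 0 of 1.67 (1.64 to 1.71) after scaling to library size. The median domain had a ratio of 1.74, and the lowest and highest deciles were 1.20 and 2.80.

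The change in the domains was close to that of single windows. Single windows had a summed ratio of 1.71 (1.70 to 1.71) and a median ratio of 1.80. Their deciles were wider, at 1.06 and 3.61, and a single window rests on fewer reads, with medians of 10 at day 0 and 15 at day 6. Per 2000 bp, the domains held 3.27 RPM at day 0 and 5.47 at day 6, against 2.92 and 4.98 in single windows. The central 1000 bp of each window, which no neighbour shares, held 8.85 ± 6.05 reads at day 0 and 13.9 ± 6.23 at day 6 in windows of domains (SD over 1179 windows). In single windows the central stretch held 9.01 ± 7.31 and 14.3 ± 8.03 reads (SD over 18444 windows). The ratio in the central stretch was 1.89 (1.85 to 1.94) in domains and 1.91 (1.90 to 1.92) in single windows.

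**Figure D3:**
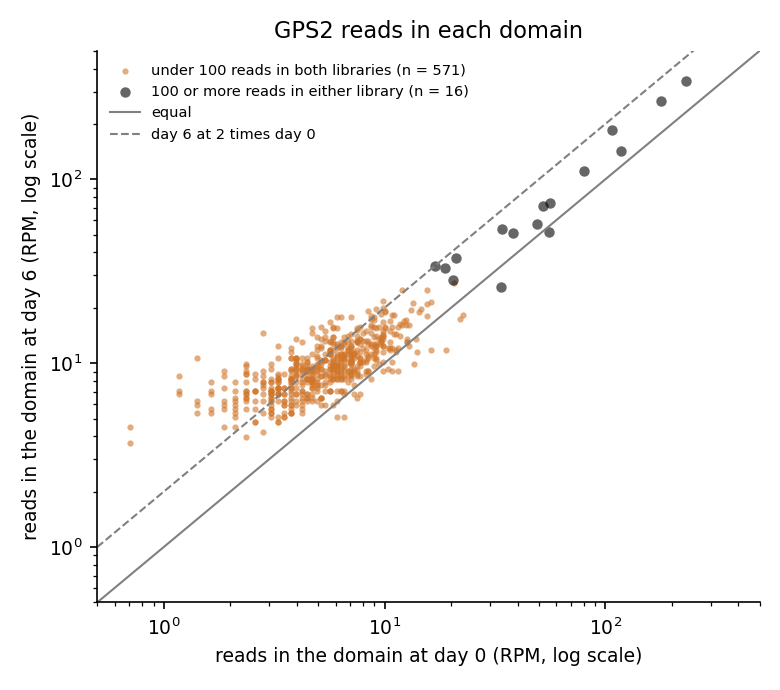
RPM at day 6 (y axis) against day 0 (x axis) for each of the 587 domains, both on log scales; the solid line marks equal values and the dashed line a ratio of 2. Most of the 571 domains under 100 reads lie between the lines or above the dashed one, and all 16 domains with 100 or more reads lie below the dashed line.

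Summed over all regions, domains stood out less from their surroundings than single windows, and their surroundings held more reads. Fold over the flank divides the density of a region by the density within 5 kb on both sides outside all listed windows, and needs no scaling between libraries. It was 2.41 (2.35 to 2.46) at day 0 and 3.46 (3.39 to 3.54) at day 6 for the domains, against 2.65 and 4.19 for single windows. The flanks of domains lay at 1.72 times the genome mean at day 0 and 1.98 times at day 6. Those of single windows lay at 1.36 and 1.45 times. From day 0 to day 6 the flanks of domains changed by a ratio of 1.15 (1.12 to 1.17), and the flanks of single windows by 1.06 (1.06 to 1.07). Of the domains, 325 (56.9%) had a fold of at least 2 already at day 0, and of the single windows 59.2%.

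Calls of higher or lower at day 6 rested on size alone. They needed a ratio of 2 or more, or of 0.5 or less, and no fewer than 10 reads in the library with the higher count. By this rule 201 of the 571 domains were higher (35.2%), while over all 19168 joined windows of the list 35.4% were higher. No domain was lower (0 of 571, or up to 0.525% if 3 counts are allowed, the limit used here for a count of 0 in place of an exact interval), against 0.141% over all joined windows. The share of higher calls in the domains is thus close to that of the whole list. The number depends on the scaling. When the libraries were scaled by the median ratio of windows found in both lists, 72 domains were higher (12.6%) and 1 lower (0.175%), against 17.2% and 0.71% of all joined windows. The windows come from the day 6 list, which favours higher calls in both sets. Every domain, with 2 or more listed windows, had at least 13 day 6 reads, while the lowest single window had 6. Among regions with 20 to 39 reads in both libraries together, 61.9% of the 97 domains and 36.0% of the 8911 single windows were higher. With 40 to 59 reads, the class with the most domains, they were 40.6% of 207 domains and 23.9% of 2947 single windows. With 60 to 79 reads the shares were 24.0% of 154 domains and 25.3% of 687 single windows, and with 80 to 119 reads 17.3% of 98 and 19.3% of 285.

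The day 0 list, which played no part in choosing the domains, was compared with them next. At least 1 day 0 window overlapped 249 of the 571 domains (43.6%, 39.5 to 47.8), and 27.4% of the single windows (26.7 to 28.0). A domain is wider and so has more room for an overlap. Taken window by window the order was the other way round. A day 0 centre lay within 500 bp of 245 of the 1179 windows in domains (20.8%, 18.5 to 23.2), and of 24.1% of the single windows (23.5 to 24.7). Where such a centre was found, it lay at a median of 116 bp from the day 6 centre in domains and 97 bp in single windows.

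Day 0 centres were also counted per domain. Such counts depend on how often a window has a day 0 centre, which was 20.8% in domains and 24.1% in single windows. The share with both windows that these rates would give was not computed. Of the 534 domains of 2 windows, 339 (63.5%) had no day 0 centre within 500 bp of either window, 168 (31.5%) had one at 1 window, and 27 (5.06%) at both. In these 27 the centres stood at a median of 1635 bp apart at day 0 and 1503 bp at day 6, and the spacing of a domain differed between the days by a median of 180 bp. Of the 37 domains of 3 windows, 19 had no such centre, 13 had one at 1 window, 5 at 2, and none at all 3.

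The ratio differed with the number of day 0 windows. Domains without a day 0 window had a summed ratio of 1.94 (1.88 to 2.01, n = 322), those with 1 had 1.51 (1.46 to 1.56, n = 202), and those with 2 or more had 1.36 (1.28 to 1.45, n = 47). Single windows showed the same order, with 1.998 (1.984 to 2.013) without a day 0 window and 1.38 (1.37 to 1.39) with one. Listing at day 0 selects regions with more day 0 reads, and its part in the difference was not tested. The domains without a day 0 window were not empty before differentiation. Their median was 18 reads at day 0 and 29 at day 6, and their median fold over the flank was 1.72 and 2.98.

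Windows of equal day 6 height were also compared. At 10 to 14 day 6 reads in the central 1000 bp, windows of domains held 7.55 day 0 reads on average (7.30 to 7.81, n = 442) and single windows 7.41 (7.34 to 7.48, n = 6185). At 20 to 29 reads they held 15.1 (14.5 to 15.7, n = 161) and 14.7 (14.5 to 14.8, n = 2566). At 5 to 9 reads windows of domains were above single windows, with 4.90 (4.65 to 5.16) against 4.51 (4.45 to 4.57). The intervals did not overlap, but they leave out the spread between windows (SD 3.11 over 302 windows and 3.10 over 5528). At 15 to 19 reads they were below, with 10.3 (9.93 to 10.7) against 10.8 (10.7 to 10.9), at a day 6 mean of 16.7 in both sets. At 30 to 99 reads they were again below, with 22.3 (20.6 to 24.1) against 26.2 (25.8 to 26.5), but their day 6 mean in this class was also lower, at 35.0 against 39.6. The sign of the difference thus varied between the classes. The share with a day 0 centre within 500 bp was lower in domains in every class, from 3.31% against 5.66% at 5 to 9 reads to 79.3% against 79.98% at 30 to 99. The intervals overlapped in each class.

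**Figure D4:**
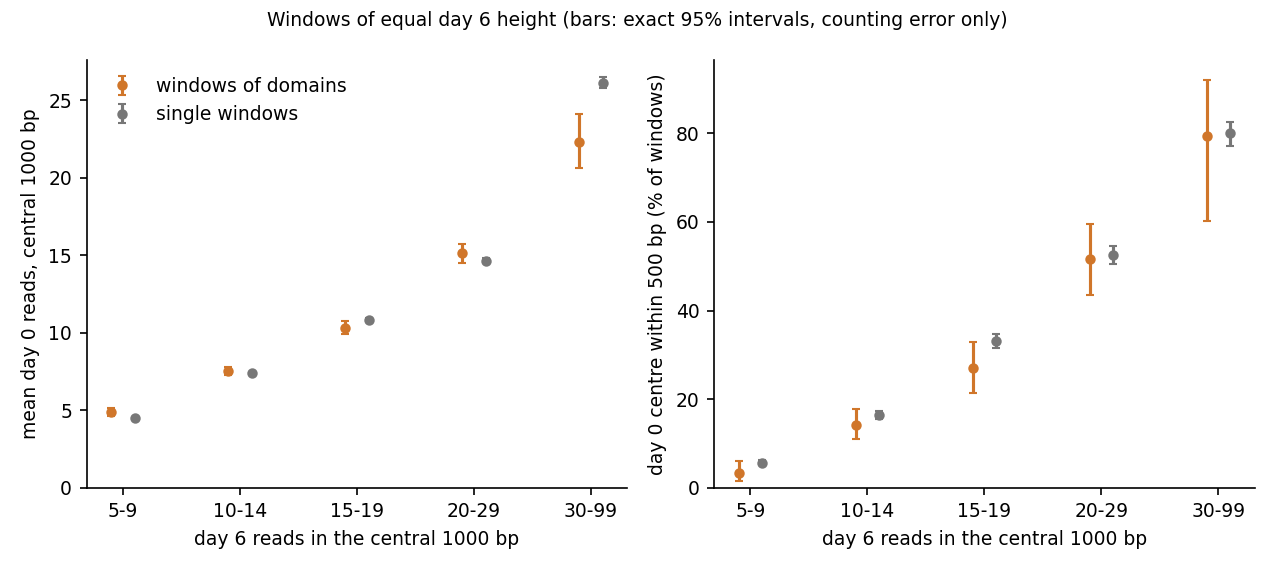
Mean day 0 reads in the central 1000 bp (left, y axis) and percent of windows with a day 0 centre within 500 bp (right, y axis) against classes of day 6 reads in the same stretch (x axes), for windows of domains (orange) and single windows (grey); bars are exact 95% intervals for counting error. Windows of domains held more day 0 reads than single windows in the lowest class (4.90 against 4.51) and fewer in the highest (22.3 against 26.2). The intervals of the means do not overlap in these classes and overlap in those between.

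The partner windows of a domain offered a comparison within the same stretch of chromatin. For the 534 domains of 2 windows, reads were divided at the midpoint so that none counted for both partners. The partner with more day 6 reads also had more day 0 reads in 349 of the 486 domains without a tie (71.8%, 67.6 to 75.8). It held 60.8% of the day 6 reads, which chose it, and 58.9% (58.0 to 59.7) of the day 0 reads, which did not. In the other direction, the partner with more day 0 reads held 64.2% of the day 0 reads and 56.6% (55.9 to 57.3) of the day 6 reads. The stronger side of a domain was thus mostly the same on both days.

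The partners were then counted by their ratios, which the day 6 listing of both windows favours above 1. Both had a ratio above 1 in 461 of 534 domains (86.3%), and both were below 1 in 9. Both were called higher in 83 domains (15.5%), only 1 of them in 225 (42.1%), and neither in 226 (42.3%). Over all joined windows of the list 35.4% were called higher, counted over the whole region and not up to a midpoint. Whether the partners share a change was not tested by these counts. A partner was called lower in 0 of the 534 domains (up to 0.562% if 3 counts are allowed). The ratio of one partner over the ratio of the other had an interval without 1 in 15 of the 534 domains (2.81%, 1.58 to 4.59), and counting error alone gives at most 5%. Among all neighbouring windows of the list with centres under 10 kb apart, counted in the central 1000 bp, it was 3.44%. By distance it was 2.47% of 608 pairs under 2000 bp, 2.73% of 549 pairs from 2000 to under 3000 bp, 3.95% of 987 from 3000 to under 5000 bp, and 3.67% of 2019 from 5000 to under 10000 bp, with overlapping intervals.

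Of the 15 domains, 3 are described, chosen after their values were seen. On chromosome 17 (56050210 to 56053678) the first partner went from 4 reads at day 0 to 24 at day 6, while the second went from 20 to 17. On chromosome 11 (22757626 to 22760870) the first partner had 7 and 19 reads and the second 28 and 12. On chromosome 8 (97591964 to 97595863) the first went from 54 to 28 and the second from 6 to 13. The ratios of ratios were 7.06 (1.84 to 32.6), 6.33 (1.88 to 22.3) and 0.239 (0.0680 to 0.774), the last with the second partner ahead.

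In domains with 1 partner at a day 0 centre, the other partner held slightly more day 0 reads than other unlisted windows. Whether reads of the listed partner or the denser flanks of domains add to this was not tested. The unlisted partner held 7.55 day 0 reads in its central 1000 bp (7.14 to 7.97, n = 168). Windows of domains without any listed partner held 6.60 (6.40 to 6.79, n = 678), and unlisted single windows 6.27 (6.23 to 6.31, n = 14005). The day 6 means of these sets were 12.9, 12.3 and 12.3 reads. The listed partner held 16.7 day 0 reads, close to the 17.6 of listed single windows. The unlisted partner had a day 6 to day 0 ratio of 2.06 (1.92 to 2.20) and the listed one 1.41 (1.34 to 1.48), which was chosen by its day 0 listing.

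Domains of 3 windows had a similar summed ratio but lower folds and fewer higher calls than domains of 2 windows. The 37 of them under the limit held a median of 38 reads at day 0 and 49 at day 6, with a summed ratio of 1.65 (1.54 to 1.77), against 1.67 (1.64 to 1.71) for domains of 2 windows. Of them 8 (21.6%) were called higher, against 36.1% of domains of 2 windows and 35.4% of all joined windows. Domains of 2 windows held fewer reads, with medians of 23 and 32. Calls were rarer in domains with more reads, at 24.0% with 60 to 79 reads in both libraries together and 17.3% with 80 to 119. The part of read number in the difference was not tested. Their median folds over the flank were 2.02 at day 0 and 3.06 at day 6, against 2.36 and 3.57. The middle window held 9.68 ± 5.85 day 0 and 14.6 ± 5.19 day 6 reads in its central 1000 bp (SD, 37 windows). The outer windows held 8.82 ± 4.99 and 13.7 ± 5.56 (SD, 74 windows). The middle window had the most day 6 reads in 15 of the 37.

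The domain of 3 windows with the most day 6 reads lay on chromosome 15 (76032091 to 76037462). It had 66 day 0 and 89 day 6 reads, with a ratio of 1.62 (1.17 to 2.26). It overlapped 3 day 0 windows, and its flanks were dense, at 2.83 and 4.03 times the genome mean. The next, on chromosome 4 (55550257 to 55555043), had 42 and 77 reads, with a ratio of 2.20 (1.49 to 3.29). It lay in a sparse surrounding, and its fold over the flank went from 5.43 to 11.5. On chromosome 5 (33052830 to 33058655), the widest domain of all at 5826 bp held 69 and 76 reads, a ratio of 1.32 (0.943 to 1.86) that is within counting error of 1, and overlapped no day 0 window. The other domains of 3 windows picked by the naming rule lay on chromosome 16 (3264736 to 3269857), with 62 and 70 reads, and chromosome 8 (73431172 to 73436288), with 56 and 69.

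The domains with the most day 6 reads below the limit included 3 of those already named and 2 domains of 2 windows on chromosome 8. The first of them (11554750 to 11558579) had 88 day 0 and 97 day 6 reads with a ratio of 1.32 (0.982 to 1.79) and stood 8.69 and 18.9 times above its flanks. The second (49171714 to 49175592) had 51 and 89 reads with a ratio of 2.10 (1.47 to 3.02) and stood 7.30 and 17.1 times above its flanks. Both overlapped 1 day 0 window, and both had sparse flanks at day 6, at 0.862 and 0.969 times the genome mean.

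The 5 largest ratios came from domains whose density at day 0 was below that of their flanks. On chromosome 17 (27786786 to 27790407) a domain of 2 windows had 6 reads and then 38, with a ratio of 7.61 (3.19 to 22.0). Against its flanks the fold moved from 0.552 to 2.33. On chromosome 10 (79347753 to 79351137) there were 5 and 30 reads, with a ratio of 7.21 (2.77 to 23.8), while the fold moved from 0.422 to 3.28. On chromosome 5 (24265269 to 24268918) there were 5 and 25 reads, with a ratio of 6.01 (2.26 to 20.1). A domain on chromosome 8 (123307453 to 123311387) went from 5 to 24 reads, and a domain of 3 windows on chromosome 4 (152865943 to 152871057) from 12 to 52, a ratio of 5.21 (2.74 to 10.7). None of these 5 overlapped a day 0 window. They are the upper extremes of the 545 domains that reached 20 reads in 1 library or both, and were chosen by the ratio they show. The interval of the ratio lay above 1 in 273 of these 545 domains and below 1 in 1. Such intervals were not counted over single windows, and the day 6 listing favours ratios above 1 in both sets.

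**Figure D5:**
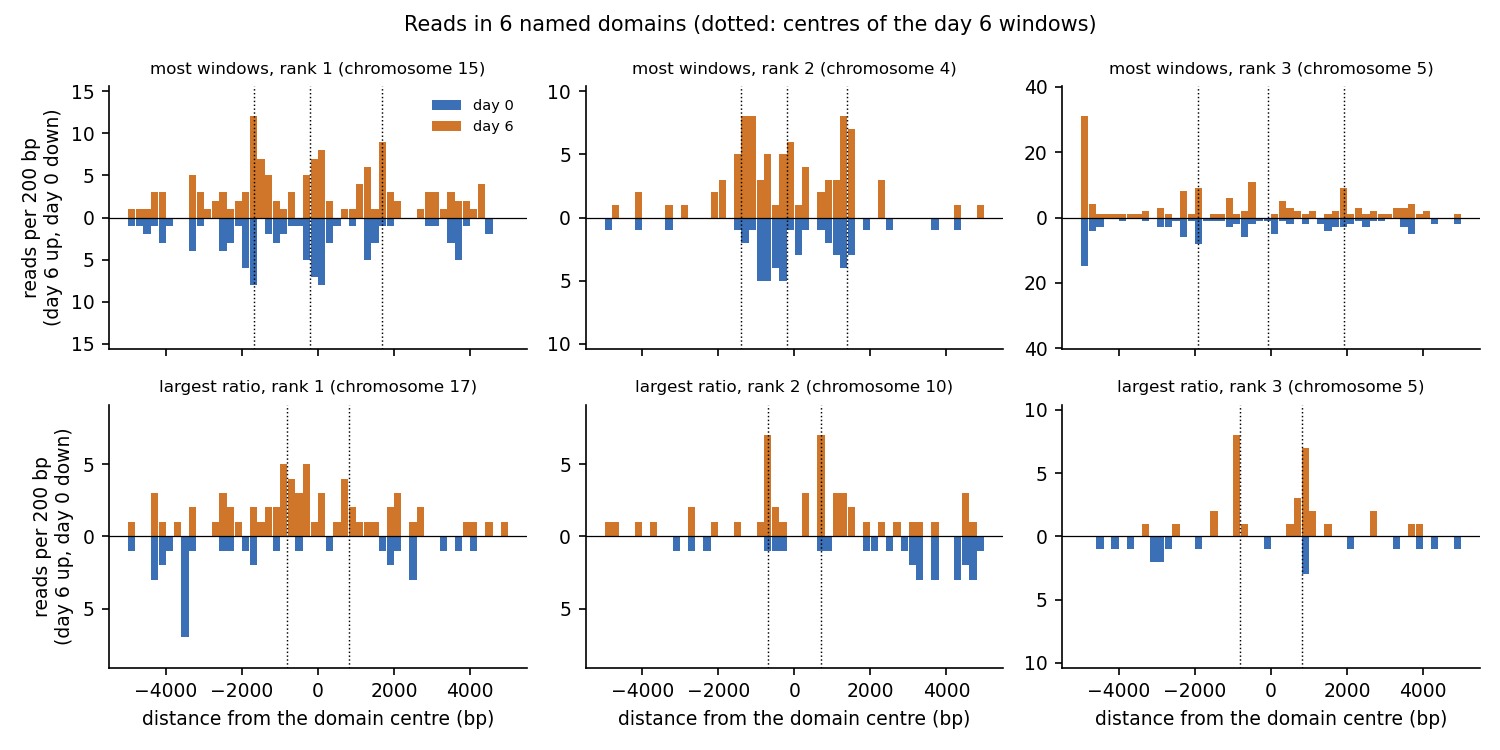
Reads per 200 bp (y axis, day 6 upward in orange and day 0 downward in blue) against the distance from the domain centre in bp (x axis) for the 3 leading domains of 3 windows (top) and the 3 domains with the largest ratios (bottom); dotted lines mark the centres of the day 6 windows. Reads gather at both centres in the lower middle and lower right domains, while the middle centre of the top right domain has few, and the lower row has 5 or 6 day 0 reads in the whole domain.

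A ratio below 1 was found in 19 domains under the limit, and such ratios were not counted over single windows. Their medians were 46 reads at day 0 and 33 at day 6, and 15 of them overlapped a day 0 window. The smallest ratio was 0.623 (0.419 to 0.915), on chromosome 5 (15189245 to 15192806), with 81 reads at day 0 and 42 at day 6, and was the only one with an interval below 1. It was followed by domains on chromosome 11 (69729527 to 69732952, 58 and 35 reads), chromosome 8 (72401080 to 72404868, 69 and 42 reads), chromosome 1 (10022246 to 10026183, 28 and 18 reads) and chromosome 5 (14909151 to 14912474, 49 and 32 reads). Their ratios, from 0.725 to 0.785, were within counting error of 1. Of the 5 domains, 3 had day 0 flanks of at least 3.27 times the genome mean, while over all 571 domains only 30 had flanks of 3 times or more. Those 30 had a summed ratio of 1.25 (1.15 to 1.36), and single windows with such flanks 1.37 (1.33 to 1.41).

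More further day 6 windows lay near domains than near single windows. The joining rule picks windows that lie close together, which favours such a difference. Within 10 kb of the middle of a domain, 293 of the 571 (51.3%) had a further day 6 window, against 30.4% of the single windows. Within 50 kb there were 4.23 ± 3.68 further windows on average (SD, n = 571), against 2.43 ± 2.86 for single windows (SD, n = 18444). Of all 587 domains, 124 (21.1%) had another domain within 50 kb. The 500 kb stretches with the most domains, 7 each, lay on chromosome 10 (79000001 to 79500000) and chromosome 8 (73500001 to 74000000). The domains of the first had 100 day 0 and 218 day 6 reads, with a ratio of 2.62 (2.06 to 3.35). Those of the second held 235 and 294, a ratio of 1.503 (1.262 to 1.792). These stretches were chosen after their values were seen.

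Chromosomes differed in how many of their windows lay in domains. The share was 9.46% on chromosome 15, 8.94% on chromosome 10 and 8.31% on chromosome 8, and 2.004% on chromosome 12 and 0.997% on chromosome X, where 3 windows formed 1 domain. Chromosome Y had none among its 3 windows. Chromosomes 8 and 15 also held the most domains, with 65 and 59. The summed ratio of the domains was 1.48 (1.35 to 1.63) on chromosome 13 and 1.49 (1.40 to 1.58) on chromosome 8, and 1.89 (1.65 to 2.17) on chromosome 4. Single windows on these chromosomes had 1.72, 1.62 and 1.77. On chromosomes 5, 8 and 13 the intervals of domains and single windows did not overlap, with the domains lower. These intervals leave out the spread between domains. Of the 19 domains under the limit with a ratio below 1, 3 lay on chromosome 5, 5 on chromosome 8 and 2 on chromosome 13. No correction for the number of chromosomes was made.

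The 16 domains with 100 or more reads in either library formed a mixed set. Together they took 0.111% of the day 0 reads and 0.157% of the day 6 reads, with between 72 and 986 reads at day 0 and between 92 and 1220 at day 6. Their summed ratio was 1.41 (1.36 to 1.47), none was called higher or lower, the interval lay above 1 in 13 and held 1 in 3, and 15 of them overlapped a day 0 window. The limit itself is a convention. Just below it lay domains with 88 and 97, 96 and 65, and 94 and 62 reads at day 0 and day 6, all on chromosome 8, and just above it domains with 87 and 100, 80 and 116, and 72 and 119 reads.

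The 3 of these 16 with the most day 6 reads had flanks at 0.930 to 2.04 times the genome mean at day 0 and 0.522 to 1.19 times at day 6. The domain on chromosome 17 (13342497 to 13346326) had 986 day 0 and 1220 day 6 reads, with a ratio of 1.49 (1.37 to 1.62), and stood 78.0 and 199 times above its flanks. On chromosome 2 (22438405 to 22442356) the counts were 760 and 948, a ratio of 1.499 (1.361 to 1.651), and on chromosome 13 (74993761 to 74997333) 457 and 655, a ratio of 1.72 (1.53 to 1.95). In these 3 domains, 29.6 to 44.3% of the day 6 read starts fell on a position and strand that also carried a day 0 read. The median was 0% in the domains under the limit. Denser filling by itself raises this share. At day 0, 6.38 to 12.9% of positions and strands were filled in the 3, against a median of 0.323% under the limit. The share that this filling alone gives was not computed. At day 6 up to 15.9% of positions and strands were filled in the 3. On chromosome 2, 84.6% of the day 0 reads of the domain lay on the plus strand. Since at most 1 read per position and strand was deposited, such counts are capped.

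Some others lay within stretches where the background itself was dense. Flanks of at least 5 times the genome mean in both libraries were found around 6 of the 16, and around 1 of the 571 other domains. One on chromosome 10 (117183712 to 117186893) had 500 and 502 reads. It exceeded its flanks by 2.98 and 3.54 times, and those flanks were 32.6 and 33.2 times the genome mean. Chromosome 10 held 3 further ones, all between 116551509 and 117196803. Another 3, on chromosomes 11 and 17, lay within 100 kb of the first read of their chromosome. The domain on chromosome 5 (134124801 to 134128121), with 339 and 391 reads, had 31.6% and 38.4% of them in its densest 200 bp. Without an input library, reads piled up by repeats or extra copies of the DNA and reads from GPS2 binding cannot be told apart in these 16. The same holds for the 571 domains under the limit, of which 30 had day 0 flanks of 3 times the genome mean or more.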

How the data were processed

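Per the labels' protocols, GPS2 ChIP-seq libraries of 3T3-L1 cells at day 0 and day 6 were sequenced on an Illumina GAII. Bowtie, HOMER and the build mm8 appear in the submitters' processing notes, with versions, settings, roles, peak threshold and control not given in the sources used here. The authors deposited reads as intervals of 36 bases, at most 1 per start and strand, whose score column was constant and not used, and 1 list of 2000 bp windows per library with positions only.

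Each 5-prime read end was shifted to the fragment centre, 95 bp at day 0 and 85 bp at day 6, and counted per region (Python 3.11.15, scipy 1.17.1). RPM refers to all reads. Flanks were the 5 kb on both sides outside all windows, with at least 2 kb free, with the genome mean as a lower bound. Ratios carry exact conditional binomial intervals, and shares Clopper-Pearson intervals, except that a share of 0 carries a limit of 3 counts. PCR copies beyond 1 read per position and differences between cultures are not covered. The regions and comparisons were chosen with earlier results of these data known.

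Regions were named by rule. It took, under 100 reads, the 5 with the most windows, the 5 with the most day 6 reads, and the 5 largest and 5 smallest ratios with at least 20 reads, and above the limit the 5 with the most day 6 reads. Alternatives covered the shift, the limit, the part counted, the scaling, the joining rule, the calling rule and the flank.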

Additional observations from a re-analysis of the deposited data

How the results depend on the processing

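Without replicates, a value counts as moved when it left its own counting interval, or, for a count, when it changed by more than 1.5 times. Of 65 alternative values 34 did not move, among them all with unmoved reads, and no ratio of the days crossed 1. Some of the 34 could not move. A limit of 1000 bp between centres drops no pair, since the closest stood 1179 bp apart. Scaling does not enter the ratio of one partner over the other. The summed ratio of the domains was 1.71 with a limit of 50 reads, 1.89 in the central 1000 bp of windows, 1.75 scaled by the reads outside all windows, and 1.25 scaled by the median ratio of windows of both lists. Single windows gave 1.71, 1.91, 1.78 and 1.28, and 1.72 without regions whose day 0 flank was at least 3 times the genome mean, an alternative chosen after seeing the data. The scaling by windows of both lists shifts every log2 ratio by -0.42 and left 72 higher domains and 1 lower. A ratio of 1.5 gave 384 and 1 of the 571 domains. Joining at an overlap of 500 bp gave 235 domains, and joining across gaps of up to 1000 bp gave 1036, by construction. Counted only over those under 100 reads, 79 and 345 were higher. The shares over all joined windows were not computed at these settings, so these counts do not set domains apart from the list. Fold over the flank at day 0 and day 6 was 2.17 and 3.19 with a limit of 50 reads, 3.06 and 4.99 in the central 1000 bp, 2.52 and 3.72 with joining at 500 bp, 2.15 and 3.12 with joining across gaps, and 2.52 and 3.61 with flanks of 10 kb. The midpoint stood at 0.162 of the centres at day 6 with joining at 500 bp, and at 0.332 (day 0) and 0.132 (day 6) with joining across gaps. With at least 20 reads in each partner, 1.55% of 322 domains had an interval without 1. Where no construction is named, the cause was not tested. Depth limits what single domains show: the median domain had 24 and 33 reads.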

Other observations

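The day 0 list held domains of its own. Joined in the same way, its 7652 windows gave 7513 regions, of which 135 were domains of 2 or more windows, with 3.58% of the listed windows. Of these, 41 (30.4%) overlapped a day 6 domain, and 41 of the 587 day 6 domains (6.98%) overlapped a day 0 domain. A further 70 day 0 domains overlapped a single day 6 window only, and 16 overlapped none.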
